A study of Mus musculus with 20 samples.

Results

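A set of 34 genes of the ATF4 stress response, amino acid supply and tRNA charging was followed in activated mouse CD8+ T cells given interleukin-21 or a designed mimic of it. The genes were taken by symbol from a list of names, and all 34 were found among the 23992 symbols of the tables. By role, the list held 5 transcription factors, 3 stress targets, 7 enzymes of amino acid synthesis, 3 mitochondrial one-carbon enzymes, 4 transporter genes and 12 cytosolic tRNA synthetases.

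CD8+ T cells were purified from spleens of wild-type C57BL/6J mice, 6 to 8 weeks old, by negative selection. All cells, controls included, had been activated with anti-CD3 and anti-CD28 for 48 hours and rested overnight before the cytokine step, which lasted 24 hours. The labels give 24 hours for the treated libraries and no time for the unstimulated ones. If those were harvested earlier, cytokine and culture time cannot be told apart in comparisons with them. Experiment 1 compared unstimulated cells with murine IL-21 (mIL-21) and the designed mimic 21h10, each given at 100 pM and 1 nM. Experiment 2 had unstimulated cells of its own and used 10 nM and 100 nM. Each experiment held 10 libraries in 5 groups of 2 duplicates, and since the labels do not say that duplicates came from separate cultures or animals, p-values measure the spread between these libraries, which may be technical.

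Cells that run short of an amino acid, or that fold or translate protein under strain, phosphorylate the initiation factor eIF2α. General translation then slows while translation of ATF4 rises, and ATF4, with C/EBP partners, switches on genes that make, import and charge amino acids. In dividing T cells the same genes also serve growth, because activated lymphocytes need serine, one-carbon units, asparagine and imported leucine and glutamine. ATF4 itself is set largely by translation, so its mRNA is an incomplete readout of its protein.

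Reads on genes numbered 36829350 to 94079673 per library in experiment 1 and 27074399 to 43303144 in experiment 2. Levels are given as reads scaled by transcript length and library size (RPKM) after TMM scaling, which was done in each experiment apart, so levels are compared within an experiment only. Duplicates differed beyond sampling noise in every group, with a chi-square per gene of 2.66 to 35.5, where 1 is expected from counting alone. The unstimulated duplicates of experiment 2 differed most. Levels of the CD8 T cell markers Cd8a, at 122 to 200 RPKM, and Cd3e, at 154 to 503 RPKM, were high in all 20 libraries. Cd79a and Ms4a1 of B cells, Lyz2, Csf1r and Cd14 of myeloid cells, and Ncr1 and Klrb1c of NK cells each stayed at or below 0.617 RPKM. Cd79b, at 3.95 to 11.6 RPKM, and Itgax, at 0.583 to 8.37 RPKM, were higher. In these bulk samples, fewer cells of a type and less RNA per cell cannot be told apart.

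ATF4 binds with a C/EBP partner to a composite element whose core, TGATGNAA, was searched on both strands of the promoter windows of the RefSeq annotation, which run from 250 bases before to 50 after the gene start (build GRCm38.p6). Windows were matched for 26 of the 34 genes, and 10 of them (38.5%) held the core, against 1219 of 27025 symbols (4.51%) with a window. A match is a description of letters and not a site shown to be bound. The 10 genes were Chac1, Trib3, Asns, Pycr1, Slc7a11, Aars, Gars, Iars, Tars and Yars. No window was matched for Slc7a5, Slc1a5, Cth, Cars, Lars, Mars, Nars and Wars. The stretches of 6 genes are shown because they cover 3 stress or synthesis genes, 1 transporter and 2 synthetases with different responses. They read 5′ to 3′ on the gene strand, and capitals mark the core or its reverse complement.
Chac1: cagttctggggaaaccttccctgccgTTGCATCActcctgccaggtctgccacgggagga
Trib3: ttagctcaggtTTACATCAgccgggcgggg
Asns: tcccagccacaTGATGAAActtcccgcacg
Slc7a11: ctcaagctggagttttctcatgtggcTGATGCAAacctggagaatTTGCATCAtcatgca
Tars: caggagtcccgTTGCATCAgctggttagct
Yars: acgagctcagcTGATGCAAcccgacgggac
These lie at chr2:119351023-119351082 on the plus strand for Chac1, chr2:152344028-152344057 on the minus strand for Trib3, chr6:7693214-7693243 on the minus strand for Asns, chr3:50443646-50443705 on the minus strand for Slc7a11, chr15:11399655-11399684 on the minus strand for Tars and chr4:129189895-129189924 on the plus strand for Yars. The core of Asns began 23 bases upstream of its gene start and that of Tars 15 bases upstream. In GENCODE M21, whose gene starts differ in places, the cores of Asns and Yars fell in an exon of their gene and those of Chac1, Trib3, Slc7a11 and Tars outside the exons. Slc7a11 held 2 copies in opposite orientation, beginning 66 and 47 bases upstream.

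**Figure D1:**
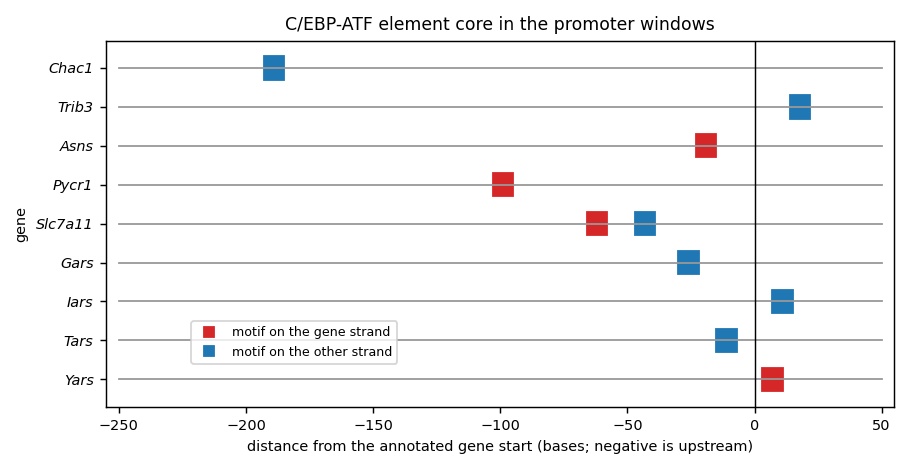
Position of the C/EBP-ATF element core in the promoter windows of 9 genes that held it; the x axis is the distance in bases from the RefSeq gene start, grey lines are the windows and boxes are matches on the gene strand (red) or the other strand (blue). The match of Chac1 lies farthest upstream and that of Trib3, 14 bases after the start, farthest downstream, and Slc7a11 holds 2.

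The main pattern of experiment 1 was an order of the 4 treated groups that most of the genes shared. Levels were lowest under 100 pM mIL-21, close to each other under 1 nM mIL-21 and 100 pM 21h10, and highest under 1 nM 21h10. Against unstimulated cells, 100 pM mIL-21 lowered 27 of the 34 genes and raised 5, with a median log2 fold change of -0.62. Over all genes tested, 38.3% were higher and 39.4% lower in that comparison, with a median of 0.00. 1 nM 21h10 raised 22 and lowered 8 (median 0.58), where 38.3% of all genes were higher and 42.1% lower (median -0.04). The 2 groups between gave mixed counts: 1 nM mIL-21 raised 17 and lowered 14 (39.9% and 40.3% of all genes), and 100 pM 21h10 raised 15 and lowered 13 (40.2% and 41.3% of all genes). All these calls are from edgeR's quasi-likelihood test with a Benjamini-Hochberg adjusted p under 0.05 over 13974 genes. For 16 genes the level passed from below that of unstimulated cells to above it: Atf4, Atf5, Cebpg, Chac1, Asns, Aldh18a1, Cth, Mthfd2, Slc7a5, Slc3a2, Aars, Cars, Eprs, Gars, Iars and Yars were lower under 100 pM mIL-21 and higher under 1 nM 21h10. The share of all genes that passed in this way was not counted.

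**Figure D2:**
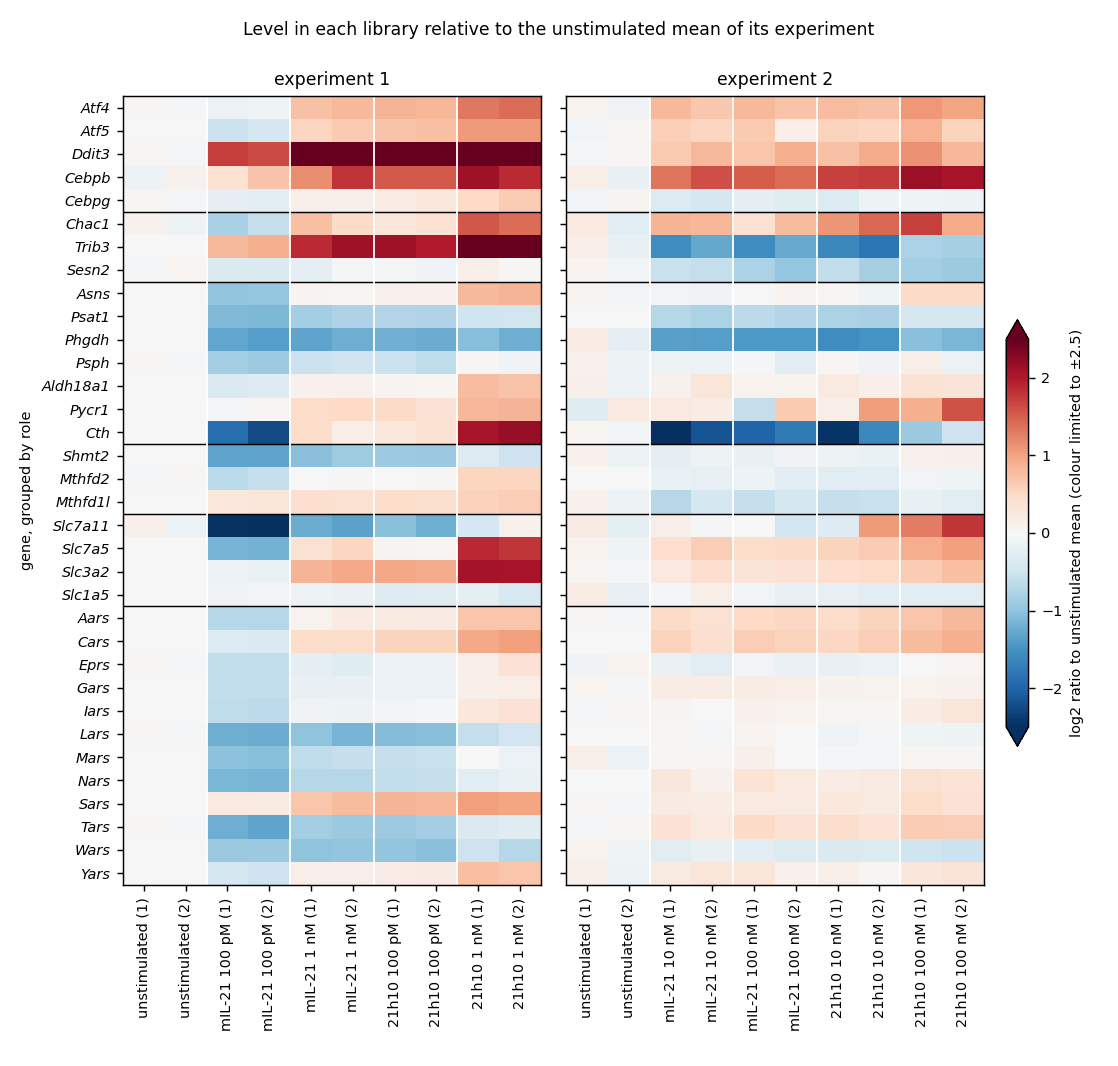
Level of the 34 genes in each of the 20 libraries as log2 ratio to the mean of the unstimulated duplicates of the same experiment; rows are genes grouped by role, columns are libraries with the duplicate number in parentheses, and colour is limited to ±2.5. In experiment 1 the 16 genes named above run from blue under 100 pM mIL-21 to red under 1 nM 21h10, whereas Phgdh is low in all treated libraries of both experiments and Trib3 is red in experiment 1 and blue in experiment 2.

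Among the transcription factors, Atf4, the effector of the pathway, stood at 92.6 and 89.0 RPKM in the unstimulated duplicates of experiment 1, at 82.3 and 84.7 under 100 pM mIL-21, at 150 and 159 under 1 nM mIL-21, at 164 and 162 under 100 pM 21h10, and at 227 and 240 under 1 nM 21h10. Both libraries of the lowest mIL-21 dose lay under both unstimulated libraries, and all 6 others lay above them. The rise under 1 nM 21h10 was 1.36 on the log2 scale (2.57-fold, SE 0.0481, adjusted p = 2.43e-14 by edgeR's quasi-likelihood test).

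Ddit3, which encodes the stress factor CHOP, had the largest rise of the list in experiment 1. It went from 10.2 and 9.87 RPKM to 33.3 and 31.3 under 100 pM mIL-21, 68.9 and 72.7 under 1 nM mIL-21, 79.5 and 80.5 under 100 pM 21h10, and 98.5 and 115 under 1 nM 21h10. No treated library overlapped the unstimulated ones, and the largest rise was 10.7-fold (log2 3.42, SE 0.0754, edgeR adjusted p = 5.12e-17). Exons of Ddit3 and Mars lie on opposite strands and share 68 bases, which is 3.97% of the exonic bases of Ddit3, and the use of strand in counting is not given in the sources used here.

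Cebpb, a partner of ATF4, was also above both unstimulated libraries in all 8 treated ones. Its 3.15 and 3.73 RPKM without cytokine became 4.50 and 5.61 under 100 pM mIL-21, 7.75 and 12.1 under 1 nM mIL-21, 9.95 and 10.0 under 100 pM 21h10, and 14.9 and 12.6 under 1 nM 21h10. Its duplicates spread more widely than those of Atf4, and 20.7% of its exonic bases lie opposite an exon of Tmem189.

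Atf5, a paralogous factor under ATF4, fell from 9.71 and 9.96 RPKM to 6.77 and 7.23 under 100 pM mIL-21 and stood at 20.6 and 20.5 under 1 nM 21h10. Cebpg, which dimerises with ATF4, moved over a narrower range, from 17 and 16.3 RPKM under 100 pM mIL-21 to 28.1 and 30.9 under 1 nM 21h10 around an unstimulated 20.5 and 19.4.

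The 3 stress targets did not share one course. Trib3, a pseudokinase that restrains ATF4 and AKT, rose in every treated group, from 5.16 and 5.16 RPKM to 9.09 and 9.61 under 100 pM mIL-21, 18.7 and 22.3 under 1 nM mIL-21, 22.5 and 20.5 under 100 pM 21h10, and 31.8 and 29.8 under 1 nM 21h10. The last was a 5.95-fold rise (log2 2.57, SE 0.0817, edgeR adjusted p = 5.88e-15). Chac1, which degrades glutathione and whose promoter stretch is printed above, was a low transcript that fell from 1.12 and 0.949 RPKM to 0.591 and 0.686 under 100 pM mIL-21 and rose to 3.05 and 2.73 under 1 nM 21h10, on 42 to 217 reads per library. Sesn2, a leucine sensor that restrains mTORC1, stayed between 6.04 and 8.58 RPKM in all 10 libraries and fell only under 100 pM mIL-21 among the 4 comparisons with unstimulated cells.

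Of the enzymes of amino acid synthesis, Cth, the last enzyme of cysteine synthesis from methionine, covered the widest span. It measured 5.99 RPKM in both unstimulated libraries, 1.63 and 1.27 under 100 pM mIL-21, 8.22 and 6.76 under 1 nM mIL-21, 7.20 and 7.76 under 100 pM 21h10, and 24.9 and 27.1 under 1 nM 21h10. It thus lay 0.244-fold of the unstimulated level at one end (log2 -2.03, SE 0.124, edgeR adjusted p = 7.16e-11) and 4.34-fold of it at the other (log2 2.12, SE 0.0884, edgeR adjusted p = 2.49e-13).

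Asns, asparagine synthetase, took a similar course at a much higher level. Its values were 65.0 and 65.2 RPKM without cytokine, 33.0 and 33.1 under 100 pM mIL-21, 68.0 and 67.7 under 1 nM mIL-21, 70.2 and 70.5 under 100 pM 21h10, and 114 and 117 under 1 nM 21h10. Under 1 nM mIL-21 the difference from unstimulated cells did not pass the threshold.

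The serine branch did not end above the unstimulated level. Phgdh, the first enzyme of serine synthesis, fell from 239 and 238 RPKM to between 91.4 and 114 in all 8 treated libraries, with log2 fold changes of -1.34 under 100 pM mIL-21 and -1.13 under 1 nM 21h10 (edgeR adjusted p = 3.02e-13 and 1.85e-12). Psat1, the next enzyme, fell from 170 and 172 RPKM to 79.5 and 78.3 under 100 pM mIL-21 and stood at 121 and 125 under 1 nM 21h10, below the unstimulated level in every treated library. Psph, the last step, was at 40.3 and 38.2 RPKM without cytokine, at 21.9 and 20.9 under 100 pM mIL-21, and back at 40.3 and 37.1 under 1 nM 21h10. Copies of Phgdh in 11 other annotated genes, the longest covering 84.9% of its transcript at 97.388% identity, and an overlap of 10.4% of the exonic bases of Psph with Cct6a leave the origin of some of these reads uncertain.

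In the proline branch, Aldh18a1, which commits glutamate to proline, went from 37.4 and 37.2 RPKM without cytokine to 29.0 and 29.9 under 100 pM mIL-21 and 63.8 and 60.8 under 1 nM 21h10. Pycr1, which completes proline synthesis in mitochondria, was low, with 1.93 and 1.89 RPKM without cytokine and 3.38 and 3.43 under 1 nM 21h10.

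The one-carbon enzymes of the mitochondrion, which turn serine into formate, split as well. Shmt2, which takes the carbon from serine, fell from 123 and 124 RPKM to 49.6 and 49.3 under 100 pM mIL-21 and remained lower, at 97.2 and 86.5, under 1 nM 21h10. Mthfd2, the dehydrogenase and cyclohydrolase of the pathway, was at 75.6 and 79.1 RPKM without cytokine, 48.8 and 52.0 under 100 pM mIL-21 and 113 and 113 under 1 nM 21h10. Mthfd1l, which releases formate, rose in all 4 treated groups, from 40.5 and 39.9 RPKM to at most 61.3.

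Both chains of the main leucine transporter were among the 6 most raised members under 1 nM 21h10. Slc7a5, the light chain of the leucine transporter LAT1, measured 54.8 and 54.4 RPKM without cytokine, 24.5 and 24.0 under 100 pM mIL-21, 71.2 and 79.1 under 1 nM mIL-21, 57.6 and 56.7 under 100 pM 21h10, and a mean of 196 ± 9.64 (SD, n = 2) under 1 nM 21h10. Slc3a2, the heavy chain that carries LAT1 to the membrane, measured 46.5 and 46.0 RPKM, 41.6 and 41.3, 83.5 and 89.6, 90.7 and 88.4, and 196 and 194 in the same order of groups. Both chains thus stood highest under 1 nM 21h10, 3.58-fold above unstimulated cells for Slc7a5 (log2 1.84, edgeR adjusted p = 1.79e-15) and 4.22-fold for Slc3a2 (log2 2.08, edgeR adjusted p = 6.81e-17).

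Slc1a5, a glutamine transporter, went against this order, with 54.7 and 55.6 RPKM without cytokine and 46.6 and 41.8 under 1 nM 21h10. Slc7a11, the cystine transporter with the paired cores printed above, was barely expressed, at 0.00833 to 0.122 RPKM on 3 to 104 reads per library. Stretches of the Slc7a11 transcript match 9 other annotated genes, the longest over 375 bases at 96.0% identity. Its level was highest without cytokine, at 0.122 and 0.1 RPKM, and under 1 nM 21h10, at 0.0818 and 0.120.

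**Figure D3:**
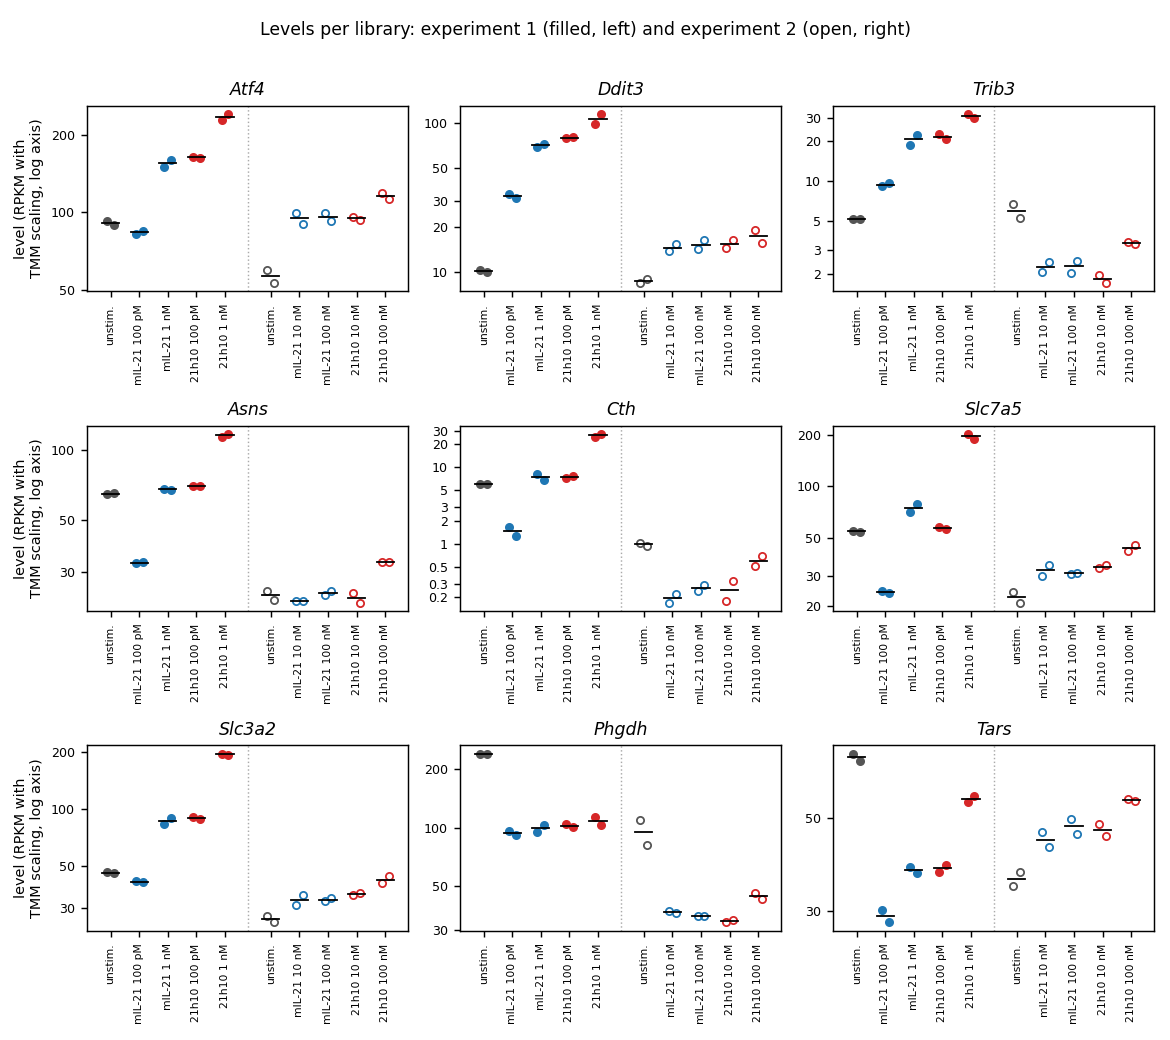
Levels of 9 genes in each library in RPKM after TMM scaling on a log axis, with experiment 1 on the left (filled) and experiment 2 on the right (open); grey is unstimulated, blue mIL-21, red 21h10, and the bar is the mean of the duplicates. In experiment 1 Slc7a5 reaches a mean of 196 RPKM under 1 nM 21h10 against 24.5 and 24.0 under 100 pM mIL-21, and Phgdh lies at or below 114 RPKM in all 8 treated libraries.

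The 12 cytosolic tRNA synthetases, which load amino acids onto their tRNAs, divided into those that ended above and those that ended below the unstimulated level. Under 100 pM mIL-21, 11 fell and Sars, for serine, rose, and under 1 nM 21h10 7 rose and 4 fell, where 38.3% of all genes were higher and 39.4% lower in the first comparison and 38.3% and 42.1% in the other. Their median log2 fold change moved from -0.68 to 0.20 between these groups. Aars, for alanine, shows the course of the first kind, with 57.0 and 55.6 RPKM without cytokine, 34.5 in both libraries under 100 pM mIL-21, 59.7 and 64.5 under 1 nM mIL-21, 66.0 and 64.7 under 100 pM 21h10, and 91.4 and 91.5 under 1 nM 21h10. An exon of Exosc6 on the same strand shares 14.3% of the exonic bases of Aars.

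Cars, for cysteine, rose from 24.0 and 23.7 RPKM without cytokine to 46.3 and 48.5 under 1 nM 21h10. Yars, for tyrosine, went from 44.6 and 44.3 RPKM to 75.3 and 72.2. Sars was the only synthetase of the 12 above the unstimulated level in all 8 treated libraries, going from 59.4 and 59.2 RPKM to 70.0 and 69.6 under 100 pM mIL-21 and 121 and 117 under 1 nM 21h10.

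Smaller rises under 1 nM 21h10 were measured for Eprs, which charges both glutamate and proline, from 96.6 and 92.4 RPKM to 106 and 121. Gars, for glycine, went from 154 and 153 RPKM to 167 and 172. Iars, for isoleucine, went from 63.2 and 63.0 RPKM to 76.2 and 80.7, with a copy of 96.014% identity over 37.4% of its transcript in Gm4849. All 3 had been lower under 100 pM mIL-21, at 61.3 and 61.8, 100.0 and 99.9, and 40.4 and 40.2 RPKM.

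The second kind stayed at or below the unstimulated level. Tars, for threonine, fell from 71.4 and 68.6 RPKM to 30.1 and 28.1 under 100 pM mIL-21 and was at 54.6 and 56.4 under 1 nM 21h10. Lars, for leucine, fell from 46.4 and 44.7 RPKM to 19.6 and 19.4 and was at 30.2 and 32.9 under 1 nM 21h10. Nars, for asparagine, fell from 107 and 105 RPKM to 48.3 and 47.2 and was at 87.2 and 94.2. Wars, for tryptophan, fell from 41.6 and 42.1 RPKM to 22.1 in both libraries and was at 29.4 and 25.5. Mars, for methionine, fell from 57.6 and 56.6 RPKM to 27.9 and 27.2 but was at 57.1 and 51.8 under 1 nM 21h10, a difference from unstimulated cells that did not pass the threshold. The core motif stood in the windows of Aars, Gars, Iars and Yars of the first kind and not in those of Eprs and Sars. Of the second kind Tars held it, and no window was matched for the other genes of that kind.

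Synthetases outside the list served for comparison. Of 8 other cytosolic synthetase genes, 3 were higher and 5 lower under 1 nM 21h10 than without cytokine (median log2 fold change -0.64). Rars at -1.65 and Hars at -1.54 led these. Over all genes, 38.3% were higher and 42.1% lower, with a median of -0.04. Of 17 mitochondrial synthetase genes, 1 was higher and 11 lower (median -0.64), led by Mars2 at -1.71 and Ears2 at -1.38. At 1 nM, 21h10 against mIL-21, 4 of the 8 were higher, none was lower and the median was 0.09, and 3 of the 17 were higher and 4 lower with a median of -0.11, beside 19.6% of all genes higher and 18.1% lower. Of the 3 partner proteins of the multi-synthetase complex, Aimp2 and Aimp1 were higher with 21h10 than with mIL-21 when both were at 100 pM, by 0.22 and 0.18 on the log2 scale, and none passed at 1 nM, where by edgeR also none had an unadjusted p under 0.05.

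**Figure D4:**
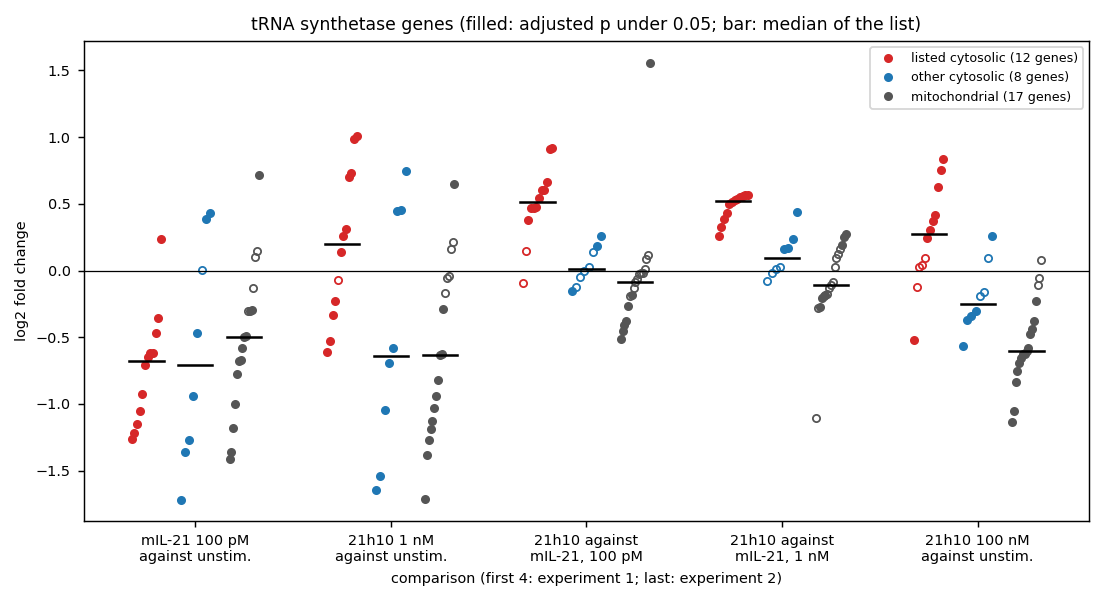
Log2 fold changes of the 12 listed cytosolic, 8 other cytosolic and 17 mitochondrial synthetase genes in 5 comparisons; each point is a gene, filled where the adjusted p is under 0.05, and the bar is the median of the list. The listed genes have medians of -0.68 under 100 pM mIL-21 and 0.20 under 1 nM 21h10 against unstimulated cells, while the mitochondrial genes have -0.50 and -0.64.

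Set directly against mIL-21 at the same dose, 21h10 gave higher levels of nearly the whole list in experiment 1. At 100 pM 30 of the 34 genes were higher and 1 lower (median log2 difference 0.57), where 19.6% of all genes were higher and 19.0% lower (median -0.01). At 1 nM 32 were higher and 1 lower (median 0.53), where 19.6% of all genes were higher and 18.1% lower (median -0.01). The gene lower at both doses was Slc1a5, with log2 differences of -0.22 and -0.17 (edgeR adjusted p = 0.00254 and 0.0139). Phgdh passed at neither dose, with a log2 difference of 0.13 at both, and Lars (0.15) and Wars (-0.09) did not pass at 100 pM. With library sizes from all mapped reads in place of TMM, the counts at 100 pM were 28 higher and 2 lower, while the share of higher genes among all genes called fell from 50.9% to 28.4%. At 1 nM the counts were 31 and 1, and that share fell from 51.9% to 41.1%.

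The largest cytokine differences belonged to Cth, at 2.36 on the log2 scale at 100 pM (5.13-fold, SE 0.122, edgeR adjusted p = 1.5e-10) and 1.80 at 1 nM (3.48-fold, SE 0.0907, edgeR adjusted p = 8.86e-11). Those of Slc7a5 were 1.24 and 1.38, and those of Slc3a2 were 1.11 and 1.17. For Asns the differences were 1.09 at 100 pM and 0.77 at 1 nM, and for Ddit3 1.30 and 0.60. Slc7a11 had nominally large differences of 1.75 and 1.18 on few reads, and the calls were lost without the second duplicate of 100 pM mIL-21 in the first case and without the second of 1 nM mIL-21 or of 1 nM 21h10 in the other.

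**Figure D5:**
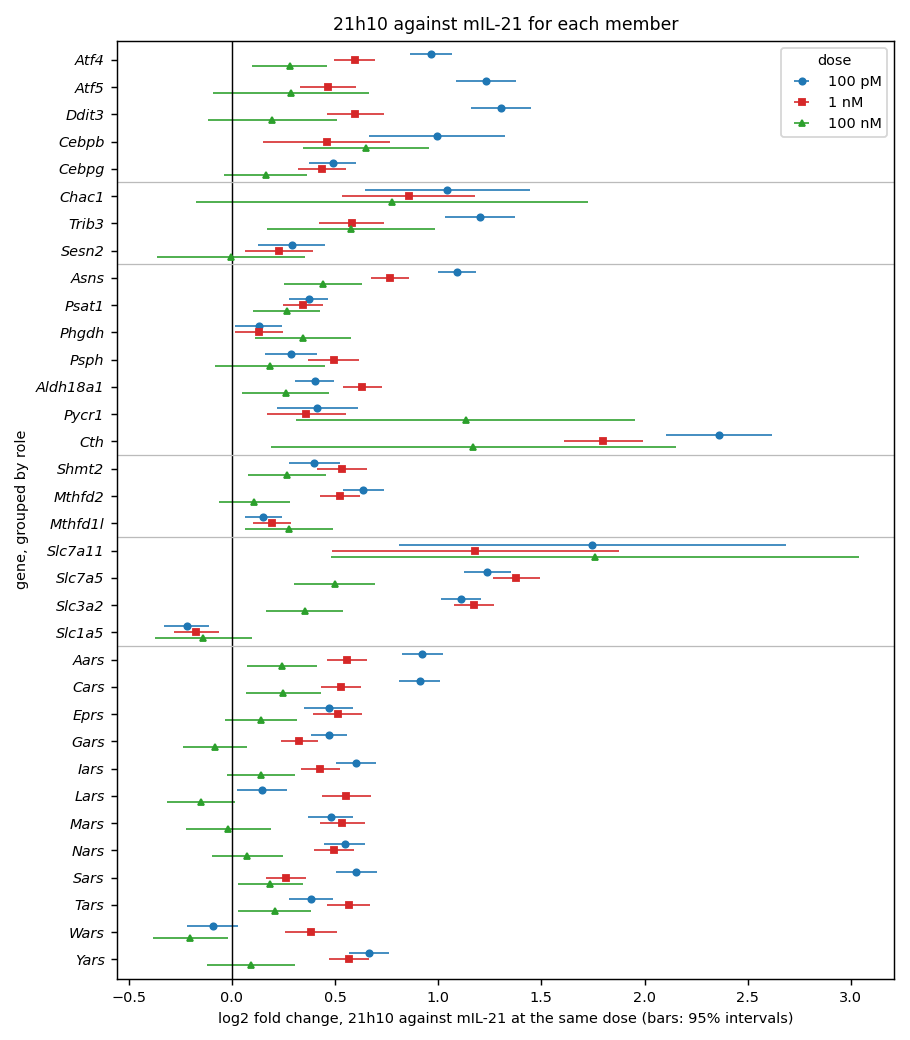
Log2 fold change between the cytokines (21h10 over mIL-21) at 100 pM, 1 nM and 100 nM for each of the 34 genes, grouped by role; points are edgeR estimates and bars 95% intervals. At 100 pM and 1 nM the points lie right of 0 for all but Slc1a5 at both doses and Wars at 100 pM, Cth lies farthest right at 100 pM (2.36), and at 100 nM most intervals are nearer to 0.

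The difference between the cytokines was smaller at 1 nM than at 100 pM for some members, as tested by the difference of differences. It was lower at 1 nM for 9 of the 34 genes and higher for 3, where 10.0% and 8.34% of all genes were. Atf5 had the largest, at -0.76 (edgeR adjusted p = 2.54e-05), from a cytokine difference of 1.23 at 100 pM and 0.47 at 1 nM. Ddit3 (-0.71), Trib3 (-0.62), Cth (-0.56), Cars (-0.38), Atf4 (-0.37), Aars (-0.36), Sars (-0.34) and Asns (-0.32) were the others. Wars (0.48), Lars (0.41) and Aldh18a1 (0.23) had larger cytokine differences at 1 nM. With mapped-read library sizes the share of genes with a higher signed difference at 1 nM, among all genes called, went from 45.4% to 58.7%.

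Raising the dose raised the list for either cytokine. From 100 pM to 1 nM, mIL-21 increased 30 of the 34 genes and lowered none (median 0.49), where 17.9% of all genes rose and 16.6% fell. 21h10 increased 31 and lowered none (median 0.47), where 20.1% of all genes rose and 19.1% fell. In both series 29 genes rose, and the share of all genes that rose in both was not counted. With mapped-read library sizes 28 rose and 2 fell with mIL-21 and 29 rose with 21h10, while the share of higher genes among all genes called went from 51.9% to 26.1% and from 51.4% to 38.0%. Phgdh and Slc1a5 passed in neither, with log2 dose differences of 0.08 and 0.08 for Phgdh and -0.07 and -0.02 for Slc1a5. Wars and Lars rose with 21h10 (0.41 and 0.55) and did not pass with mIL-21 (-0.07 and 0.14). Sesn2 passed only with mIL-21, by 0.21 (edgeR adjusted p = 0.0498), and its call was lost with DESeq2 and when any 1 of 7 libraries was left out.

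The dose steps of Slc7a5 were among the largest, at 1.63 with mIL-21 and 1.77 with 21h10 (3.10-fold and 3.42-fold). Those of Cth were 2.35 and 1.79. Slc3a2 rose by 1.06 and 1.12 and Chac1 by 1.32 and 1.13.

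The lower dose of 21h10 came close to the higher dose of mIL-21. Of the 34 genes, only Slc7a5 differed between 100 pM 21h10 and 1 nM mIL-21, being lower with 21h10 by a log2 difference of -0.40 (95% interval -0.51 to -0.28, edgeR adjusted p = 0.000769), where 0.737% of all genes were called in either direction. At an unadjusted p under 0.05 there were 6 members. The intervals for the other members bound how far the groups could differ: they ran from -0.02 to 0.18 for Atf4, -0.04 to 0.14 for Asns, -0.19 to 0.21 for Cth and -0.05 to 0.14 for Slc3a2, but from -0.59 to 0.88 for the scarce Slc7a11. A p over the threshold does not show that the levels were equal.

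Levels of Itgax and Cd79b, listed as markers of other cells, moved with these groups. Itgax, a listed myeloid marker, was at 8.28 and 8.37 RPKM under 100 pM mIL-21 and 2.59 to 2.66 in the 2 middle groups. It was at 0.583 and 0.683 under 1 nM 21h10, opposite in order to the list, and 0.908 and 0.709 without cytokine. The level of Cd79b, a B cell marker, was 10.9 and 11.6 RPKM under 100 pM mIL-21 and 5.04 and 4.98 under 1 nM 21h10. Lyz2, Csf1r and Cd14 did not exceed 0.273 RPKM and Cd79a and Ms4a1 did not exceed 0.617 RPKM in any library. The part of such cells in the results was not tested.

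In experiment 2, where fewer of all genes passed as well and the dispersion was larger, some members had other directions than in experiment 1. Against the unstimulated cells of that experiment, mIL-21 raised 11 genes and lowered 9 at 10 nM (22.5% and 23.7% of all genes) and raised 10 and lowered 8 at 100 nM (22.5% and 23.7%). 21h10 raised 11 and lowered 8 at 10 nM (25.2% and 24.9%) and raised 18 and lowered 6 at 100 nM (25.0% and 25.8%). These splits depend on the scaling. With library sizes from all mapped reads, the median of all genes moved by -0.30 to -0.18 on the log2 scale in the 4 comparisons, and the counts became 6 higher and 12 lower, 5 and 13, 6 and 16, and 9 and 13 in the same order, while the share of higher genes among all genes called went from between 48.7 and 50.3% to between 23.3 and 29.8%. Levels and fold changes of experiment 2 are therefore relative to a typical gene, as TMM sets it. Markers of other cells moved with treatment in this experiment too. Foxp3, of regulatory T cells, was at 0.0502 and 0.0427 RPKM without cytokine, on 8 and 6 reads, and at 0.424 to 1.03 RPKM in the 8 treated libraries, on 49 to 130 reads, while in experiment 1 it stayed at or below 0.0379 RPKM. Cd4 went the opposite way to Foxp3, from 0.948 and 0.925 RPKM without cytokine to between 0.277 and 0.458. Cd79b went from 8.53 and 6.38 RPKM to between 3.95 and 5.95. Cd79a, Ms4a1, Klrb1c, Ncr1 and Lyz2, each at or below 0.617 RPKM, were lower in the treated libraries as well. Itgax was higher in all treated groups but 100 nM 21h10. The part of such cells in the results was not tested.

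In all 4 of these comparisons 9 genes were higher: Atf4, Ddit3, Cebpb, Slc7a5, Slc3a2, Aars, Cars, Sars and Tars. The share of all genes that were higher in all 4 was not counted. Atf4 went from 59.7 and 53.2 RPKM without cytokine to 99.6 and 89.8 under 10 nM mIL-21, 99.0 and 92.0 under 100 nM mIL-21, 96.1 and 93.2 under 10 nM 21h10, and 119 and 112 under 100 nM 21h10. Cebpb had the largest rise, from 3.26 and 2.55 RPKM to 12.9 and 12.1 under 100 nM 21h10 (4.29-fold, log2 2.10, SE 0.155, edgeR adjusted p = 2.1e-08). Ddit3 rose from 8.40 and 8.93 RPKM to 19.2 and 15.5. Under mapped-read library sizes Atf4, Ddit3, Cebpb, Aars and Cars passed in all 4 comparisons, Slc7a5 in 3, Slc3a2 and Tars under 100 nM 21h10 alone, and Sars in none.

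In the same 4 comparisons 5 genes were lower: Trib3, Sesn2, Psat1, Phgdh and Wars, and all 5 passed under mapped-read library sizes as well. The share of all genes that were lower in all 4 was not counted either. Phgdh fell from 109 and 81.7 RPKM to between 32.7 and 46.5 in the 8 treated libraries. Psat1 fell from 83.0 and 81.2 RPKM to between 46.9 and 61.7. Wars fell from 47.8 and 41.9 RPKM to between 30.7 and 39.7, and Sesn2 from 3.99 and 3.61 RPKM to between 1.94 and 2.60.

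Trib3 was the clearest difference between the experiments, with all 8 treated libraries above the unstimulated ones in experiment 1 and all 8 below them in experiment 2. It measured 6.72 and 5.23 RPKM without cytokine, 2.05 and 2.46 under 10 nM mIL-21, 2.04 and 2.5 under 100 nM mIL-21, 1.95 and 1.71 under 10 nM 21h10, and 3.44 and 3.34 under 100 nM 21h10. Cth, a gene that 1 nM 21h10 had raised, fell from 1.02 and 0.939 RPKM to 0.170 and 0.219 under 10 nM mIL-21 and measured 0.515 and 0.681 under 100 nM 21h10, not past the threshold, on 9 to 76 reads per library.

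Tars and Nars were opposite in the other sense. Tars, below the unstimulated level in all treated libraries of experiment 1, lay above it in all 8 of experiment 2, at 34.4 and 37.1 RPKM without cytokine and 55.7 and 54.9 under 100 nM 21h10. Nars went from 57.5 and 58.9 RPKM to 76.0 and 74.2, and its rise was not past the threshold under mapped-read library sizes. Mthfd1l, higher in experiment 1, was at 46.9 and 39.9 RPKM without cytokine and 27.0 to 38.2 in the treated libraries of experiment 2. Dose range and experiment changed as one and cannot be told apart, and none of these differences between experiments was tested.

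Most of the remaining genes passed against unstimulated cells in some groups of experiment 2 only. Atf5 was higher under 10 nM mIL-21 and both doses of 21h10, from 3.13 and 3.39 RPKM to 4.91 and 4.76 under 10 nM mIL-21 (log2 0.57, edgeR adjusted p = 0.0157) and 5.98 and 4.79 under 100 nM 21h10 (log2 0.73). Cebpg was lower with either dose of mIL-21, from 13.7 and 15.1 RPKM to 11.3 and 10.7 at 10 nM (log2 -0.39, edgeR adjusted p = 0.003) and 12.1 and 11.7 at 100 nM. Asns was at 25 and 22.9 RPKM without cytokine, between 22.3 and 25 in the 3 lower treated groups and at 33.2 and 33.4 under 100 nM 21h10. Eprs, Gars, Iars, Lars, Mars and Yars each lay within a range of 1.4-fold across the 10 libraries, from 18.6 to 25.5 RPKM for Yars and from 101 to 118 RPKM for Gars, and of these Yars was higher under 10 nM mIL-21 and 100 nM 21h10, Iars higher under 100 nM 21h10 and Eprs lower under 10 nM mIL-21. Psph, at 17.4 to 23.9 RPKM, and Shmt2, at 44.0 to 55.9 RPKM, passed in no comparison with unstimulated cells. Mthfd2, at 34.8 to 42.2 RPKM, was lower under 10 nM 21h10, Aldh18a1, at 21.0 to 29.9, higher under 100 nM 21h10, and Slc1a5, at 41.8 to 57.3, lower there. Chac1 (0.243 to 0.971 RPKM), Pycr1 (0.410 to 1.88 RPKM) and Slc7a11 (0.0280 to 0.133 RPKM) rested on 8 to 147 reads per library, and all 3 were higher under 100 nM 21h10, Chac1 also at 10 nM.

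Between the cytokines, none of the 34 genes differed at 10 nM, where 0.00726% of all genes were called, and by edgeR 1 member and 1208 of all genes had an unadjusted p under 0.05, while DESeq2 called no member and 13 genes. The interval of the difference was -0.18 to 0.18 for Atf4 and -0.14 to 0.24 for Asns. At 100 nM 5 genes were higher with 21h10 and none lower, where 4.01% of all genes were higher and 4.52% lower, and the median over the list was 0.25. They were Cebpb (0.65), Slc7a5 (0.50), Asns (0.44), Slc3a2 (0.35) and Psat1 (0.27). Slc7a5 stood at 30.8 and 31.4 RPKM with mIL-21 and 42.1 and 45.8 with 21h10 (edgeR adjusted p = 0.00321), and Asns at 24.1 and 25 against 33.2 and 33.4 (edgeR adjusted p = 0.00543). This count rested on single libraries: it was 0 without the first duplicate of 100 nM mIL-21 or the second of 100 nM 21h10, 1 without the first of 100 nM 21h10, 3 without the second of 100 nM mIL-21 and 13 without either unstimulated duplicate. Levels of Itgax, listed as a myeloid marker, moved with this contrast. They were 4.40 and 4.50 RPKM under 100 nM mIL-21 and 1.47 and 1.37 under 100 nM 21h10. Lyz2 had 0 reads and Csf1r and Cd14 at most 2 in these libraries, and the part of other cells was not tested. A fit with a replicate block gave 8. With mapped-read library sizes 3 members were called, and the share of higher genes among all genes called went from 47.0% to 30.1%.

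From 10 nM to 100 nM, mIL-21 changed none of the 34 genes (0.0% of all genes), and at an unadjusted p under 0.05 by edgeR there were 0 members and 361 of all genes, with no member called by DESeq2. 21h10 raised 5 genes and lowered none, where 1.88% of all genes rose and 3.45% fell: Trib3 (0.89), Asns (0.51), Phgdh (0.43), Psat1 (0.37) and Slc7a5 (0.37). Itgax was at 4.28 and 3.89 RPKM under 10 nM 21h10, against the 1.47 and 1.37 given for 100 nM. Without one library of the 2 groups this count was 0 or 1, and it was 11 without either unstimulated duplicate. The cytokine difference at 100 nM passed the test against that at 10 nM for none of the members by edgeR (0.922% of all genes, in either direction), with 7 members at an unadjusted p under 0.05 and none called by DESeq2.

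Other genes of the pathway were read from lists of the same kind. Of 20 further regulators of the stress response that were tested, 11 were higher and 5 lower with 21h10 than with mIL-21 at equal doses of 100 pM, and 9 and 6 at 1 nM, beside 19.6% of all genes higher and 19.0% lower at 100 pM and 19.6% and 18.1% at 1 nM. Nupr1, a stress-inducible chromatin protein, had the largest differences, at 2.74 and 2.17 on the log2 scale. Its level was 1.88 and 1.94 RPKM under 100 pM mIL-21, between 11.4 and 13.0 in the middle groups, and 48.9 and 60.3 under 1 nM 21h10. Trib2, a paralogue of Trib3, followed at 100 pM with 0.75, and at 1 nM Jdp2 and Sesn1 were each lower by a log2 difference of -0.64.

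Among 19 other genes of amino acid and one-carbon metabolism, 3 were higher and 6 lower at 100 pM and 5 and 3 at 1 nM, beside the same shares of all genes. Aldh1l2, the mitochondrial formyltetrahydrofolate dehydrogenase, led with 2.11 and 1.49, and the next were Prodh (-0.88) at 100 pM and Cbs (0.98) at 1 nM. Against unstimulated cells 15 of the 19 were lower under 1 nM 21h10 (42.1% of all genes), the largest being Shmt1 (-2.72) and Mthfd1 (-2.37) of the cytosolic folate pathway. Of 12 other amino acid transporters, 5 were higher and 1 lower at 100 pM and 4 and 3 at 1 nM, with Slc6a9, a glycine transporter (1.39), and Slc1a4 (0.90) largest at 100 pM and Slc7a3, a cationic amino acid transporter (1.11), and Slc6a9 (0.73) largest at 1 nM, where the shares of all genes were those given for the regulators.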

How the data were processed

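RNA of mouse CD8+ T cells in 20 libraries was sequenced by the authors on an Illumina NovaSeq and mapped to mm10 (GRCm38). The submitters' processing notes name Bowtie2 2.2.6, TopHat2 2.0.11, SAMtools 0.1.8, bedtools 2.25.0 and edgeR. The deposited tables hold 1 whole-number read count per RefSeq transcript, and the deposited RPKM was derived by the authors from it, the transcript length and the mapped reads (40317113 to 110876981 per library). The counting tool's settings and use of strand are not given in the sources used here.

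Of 31682 transcripts, the longest was kept for each of 23992 symbols; 634 symbols had another transcript with more reads, Atf5, Mthfd1l and Wars among the members. Counts were tested with edgeR 4.0.16 (R 4.3.3; filterByExpr with 10 and 15 reads, TMM, glmQLFit and glmQLFTest, all 10 libraries of an experiment, no replicate block) over 13974 and 13772 genes, with Benjamini-Hochberg adjustment and a threshold of 0.05; intervals are 95%. Precision rests on 2 libraries per group, at a common dispersion of 0.00187 in experiment 1 and 0.00774 in experiment 2. Labels "WT" and "h10" were read as mIL-21 and 21h10. The script was tested on simulated data. Alternatives used DESeq2 1.42.0 and limma 3.58.1 on log2(RPKM + 1), a log2 limit of 0.5, other filters, fits, transcripts and library sizes, and each library left out. Overlaps come from GENCODE M21 and copies from BLAST 2.17.0 (at least 95% identity over 100 bases).

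The rule for the members used no measured values, but they and all gene lists were chosen with earlier results of these data known. Every member is named with its level; a fold change is tested only where stated, and genes of other lists are named where they passed with one of the 2 largest changes of their list or where 5 or fewer passed. Adgre1 was not found among the symbols, and Cebpa did not pass the filter. Results for 1 further marker gene and 1 promoter stretch are not reported here.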

Additional observations from a re-analysis of the deposited data

Results flagged for a closer look

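For 12 members the difference between 21h10 and mIL-21 changed with dose in experiment 1, by an edgeR quasi-likelihood test of the difference itself, on the log2 scale and with Benjamini-Hochberg adjusted p-values. It was smaller at 1 nM than at 100 pM for Atf5 (-0.764, adjusted p = 2.54e-05), Ddit3 (-0.708, 5.42e-05), Trib3 (-0.622, 0.000686) and Cth (-0.559, 0.0201). Smaller changes in the same direction were measured for Cars (-0.38), Atf4 (-0.371), Aars (-0.364), Sars (-0.341) and Asns (-0.323). The difference was larger at 1 nM for Wars (0.477, 0.000654), Lars (0.409, 0.00171) and Aldh18a1 (0.228, 0.0177). Without 1 of the libraries given mIL-21 or 21h10 the calls of Aldh18a1 (3 libraries) and Cth (3 libraries) were lost, among them the second duplicate of 100 pM mIL-21 for both.

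In 4 members all treated libraries lay on one side of the unstimulated duplicates in experiment 1 and on the other in experiment 2. The share of all genes with such a pattern was not counted. Against unstimulated cells, Trib3 changed by 2.57 on the log2 scale under 1 nM 21h10 (2.574) and by -0.819 under 100 nM 21h10. The values were 0.594 and -0.229 for Mthfd1l, -0.226 and 0.368 for Nars, and -0.334 and 0.629 for Tars. The change of Mthfd1l under 100 nM 21h10 did not pass the threshold (edgeR adjusted p = 0.068). That of Nars under 100 nM 21h10 did not pass under mapped-read library sizes. These differences between experiments were not tested, and dose range and experiment cannot be told apart. Groups of 2 libraries are too small to look for single libraries that stand apart.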

How the results depend on the processing

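Shares of all genes called under each setting are not given in this section, so a count of members that moved may follow all genes. The counts of members past the threshold in experiment 1 stayed within 1.5 times under DESeq2, no filter, limma, the compared groups alone, the most-read transcript and mapped-read library sizes. A log2 limit of 0.5 left 18 under 1 nM mIL-21 and 18 under 100 pM 21h10 against unstimulated cells, 18 and 19 between the cytokines at 100 pM and 1 nM, 17 and 15 for the dose steps of mIL-21 and 21h10, 0 for 100 pM 21h10 against 1 nM mIL-21, 4 for the change of the cytokine difference with dose, and against unstimulated cells 11 for mIL-21 at 10 nM and 11 at 100 nM.

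Between the cytokines at 100 nM (5 members), DESeq2 gave 10, limma 3, the log2 limit 1, the compared groups alone 14 and mapped-read library sizes 3, and leaving out single libraries 0 to 13. For 100 nM 21h10 against 10 nM (5 members) the same settings gave 10, 2, 2, 15 and 3, and 0 to 11. For the change of the cytokine difference in experiment 2 (0 members), no filter and the compared groups alone each gave 1, and single libraries left out 0 to 1. The cause was not tested.

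A replicate block gave 8 members between the cytokines at 100 nM and moved no other count by over 1.5 times. In the labels, duplicates of different groups shared only a number. The correlation of their deviations ran from -0.0617 to 0.0293 in experiment 1 and from -0.167 to 0.227 in experiment 2. It was over 0.1 in 0 and 3 of 10 pairs of groups. What the higher correlations of experiment 2 come from was not tested.

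Of 350 single calls, the sign turned for Sars under 10 nM 21h10 (limma -0.015, mapped reads -0.017), Iars under 100 nM 21h10 (-0.053 and -0.055) and Yars there (mapped reads -0.004), all against unstimulated cells of experiment 2, where mapped reads shift the median of all genes downwards. DESeq2 lost 6 of 350 calls; with those that turned, 43 of 336 were lost with limma and 43 of 350 with mapped-read library sizes. Limma gave no value for 14 calls of Slc7a11, Cth, Chac1 and Pycr1.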

Other observations

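Both genes here were chosen after their values were seen. Lars2, a mitochondrial synthetase gene outside the list, varied widely between duplicates, with 242 and 823 RPKM under 100 pM 21h10 and 306 and 807 under 1 nM mIL-21. Vldlr, a lipoprotein receptor gene among the further regulators, rose by 6.06 on the log2 scale under 1 nM 21h10, and its log2 fold change under 100 nM 21h10 was -1.08, a difference between experiments that was not tested.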
